A study of Mus musculus with 5 samples.

Results

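To ask which transcripts of bone marrow stroma were carried in sorted hematopoietic stem cell (HSC) libraries, and in which of those libraries, 10 genes of the marrow niche were read: Cxcl12, Col1a1, Col1a2, Col3a1, Bgn, Sparc, Tnc, Ibsp, Kitl and Lepr. They were matched by name in the table of normalized read counts, where all 10 of them were found among 24046 gene symbols. The genes had been selected on earlier readings of these same libraries, in which stroma transcripts were highest in a WT library and Tnc and Ibsp were at the floor of detection in both KO libraries. Their levels and their genotype contrast are therefore given as a description. Calls over the whole table are printed once for them, beside the share of all genes called, and support nothing here.

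Bulk RNA-seq was carried out on HSCs from lethally irradiated CD45.1 congenic recipient mice that had received whole bone marrow of Syncrip flox/flox donors. These donors carry floxed alleles of the gene for an RNA-binding protein. The 3 WT libraries (WT 1, WT 2 and WT 3) came from Mx1 Cre- marrow and the 2 KO libraries (KO 2 and KO 3) from Mx1 Cre+ marrow. Both groups received pIpC, an interferon inducer that switches on the Mx1 promoter, 6 weeks after transplantation, and HSCs were sorted 3 weeks later as CD45.2+, Lin-, Sca1+, cKit+, CD150+, CD48- cells. Whether a library held 1 mouse or a pool was not given in the sources used here, so any p-value measures only the spread between these libraries. The age of the mice at harvest was not given in the labels. The transgene was carried by the donor marrow, and the labels give no deletion in the recipients' own niche cells. Control marrow had no Cre, so an effect of the recombinase itself cannot be told apart from loss of Syncrip.

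The marrow niche is built by perivascular stromal cells, bone-lining cells and vessels. Leptin receptor-positive stromal cells are known for secreting CXCL12, which holds HSCs in the marrow through CXCR4, and stem cell factor (the product of Kitl), which sustains them through KIT. Fibroblasts and osteoblasts lay down type I and type III collagen and the proteins bound to it. None of these proteins is a defining product of HSCs, and in bulk samples a change in the number of stromal cells and a change in the RNA per cell cannot be told apart.

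Libraries held 12539599 to 22779536 reads, both KO libraries being shallower than every WT library. In units of normalized reads (reads divided by a size factor of the library), 3 reads, taken here as the floor of detection, corresponded to 2.50 to 2.60 in WT, 3.08 in KO 2 and 4.56 in KO 3. Intervals and floors cover counting error only, because PCR copies of a molecule were not told apart from other reads. Syncrip itself stood at 1440 to 1944 normalized reads in WT and at 294 and 343 in KO, and limma gave a log2 fold change of -2.43 with an SE of 0.22 (adjusted p = 0.0352). All 14 HSC marker genes read here exceeded 3 reads in all 5 libraries. Gata2 (2269 to 14815 normalized reads, the highest in KO 3), Kit (8007 to 10741) and Meis1 (1604 to 5092, the highest in KO 3) had the highest values in any library. KO 3 was the highest library for 10 of the 14, with a summed level of 50293 against 22384 to 36519 in WT and 26085 in KO 2. Itgam, which encodes the myeloid antigen CD11b, was also present, at 7074 to 11353 in WT and at 2313 and 5158 in KO, so the libraries were not free of a lineage transcript.

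Promoter sequences of the members were examined first, because several of the genes were high in the same library. RefSeq promoter entries (GRCm38.p6) matched 9 of the 10 genes with 11 start sites. The 120 bases before the start site are shown, 5′ to 3′ on the gene's strand, for Ibsp (chr5:104299167-104299286, plus strand), Tnc (chr4:64047016-64047135, minus strand) and Cxcl12 (chr6:117168415-117168534, plus strand), which were highest in WT 2, and for Bgn (chrX:73483481-73483600, plus strand), which was spread over the libraries. Capitals mark any of the motifs searched, on either strand. The TATA core was searched as TATAAA and the CCAAT box as CCAAT. For the binding core of RUNX transcription factors the letters were TGTGGT, and for the GC box they were GGGCGG.
Ibsp: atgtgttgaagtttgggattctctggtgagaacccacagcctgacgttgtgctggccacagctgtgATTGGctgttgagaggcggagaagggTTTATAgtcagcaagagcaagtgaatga
Tnc: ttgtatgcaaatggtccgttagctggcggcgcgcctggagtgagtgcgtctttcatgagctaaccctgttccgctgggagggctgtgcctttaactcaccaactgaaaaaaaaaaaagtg
Cxcl12: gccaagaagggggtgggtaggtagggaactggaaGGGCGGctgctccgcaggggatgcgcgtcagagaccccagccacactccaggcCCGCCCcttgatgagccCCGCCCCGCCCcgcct
Bgn: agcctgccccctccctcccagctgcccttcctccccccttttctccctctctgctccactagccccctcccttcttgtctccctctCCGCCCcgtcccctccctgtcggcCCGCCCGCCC

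The RefSeq start of Ibsp lies downstream of the GENCODE gene start printed further on, so most of its stretch falls inside the GENCODE gene. The bone-type gene Ibsp held a CCAAT box on the opposite strand at 54 to 50 bases before the start and a TATA core on the opposite strand at 28 to 23 bases. In Cxcl12 and Bgn the capitals were GC boxes, and in each gene the pair nearest the start site overlapped. None of the 4 motifs lay in the 120 bases shown for Tnc. Over the full 250 bases before the start, the TATA core was found in 5 of the 11 member promoters against 12.4% of all 32851 promoters, and the GC box in 7 of 11 against 32.7%. The TATA core promoters belonged to Col3a1, Ibsp, Kitl and Tnc, and the GC box promoters to Bgn, Col1a2, Cxcl12, Kitl, Lepr and Tnc. Tnc and Lepr entered with separate start sites, and the windows of Tnc overlapped, so the 11 promoters are not independent. The CCAAT box was in 3 of 11 (33.8% of all) and the RUNX core in 0 of 11 (14.0% of all). These matches describe letters in a window and were not tested as sites.

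The summed level of the 10 genes separated the libraries far more than the genotypes. It was 359 normalized reads in WT 1 (95% Poisson interval 326 to 394), 2632 in WT 2 (2539 to 2728), 255 in WT 3 (227 to 286), 738 in KO 2 (685 to 794) and 232 in KO 3 (197 to 272). WT 2 was 3.57-fold above the next library, KO 2 (counting interval 3.29 to 3.87), and WT 1, WT 3 and KO 3 formed the low end. In reads, this was 3033 of 21748781 in WT 2 (0.0139%) and 153 of 12539599 in KO 3 (0.00122%). These transcripts made up a small share of the reads of every library.

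**Figure D1:**
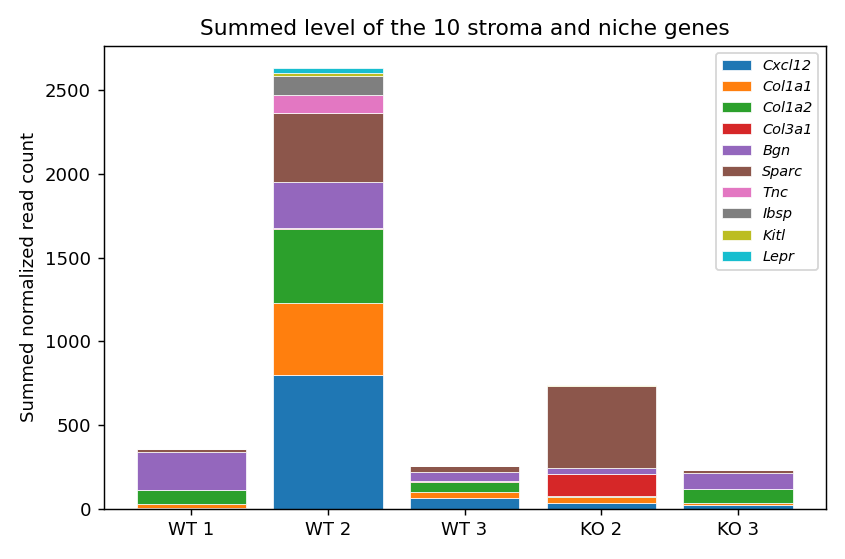
Stacked bars of the summed normalized read count (linear y axis from 0) of the 10 stroma and niche genes in each library (x axis), with a colour per gene. WT 2 reaches 2632 and holds every gene, while in KO 2 (738) Sparc and Col3a1 make up most of the bar.

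The genotype contrast of this sum turned on WT 2. Its mean over the 3 WT libraries was 1082 ± 1343 (SD), that over the 2 KO libraries was 485 ± 358 (SD), a log2 difference of -1.16 for KO against WT. With WT 2 left out, the WT mean was 307 and the log2 difference 0.66, in the opposite direction. With KO 2 left out it was -2.22. KO and WT ranges overlapped.

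Detection told the libraries apart in the same way. All 10 genes exceeded 3 reads in WT 2, 7 did in KO 2, and 5 did in each of WT 1, WT 3 and KO 3. Depth in WT 1 (21915461 reads) and WT 3 (22779536) was not below that of WT 2. Tnc, Ibsp and Lepr exceeded 3 reads in WT 2 alone, Kitl and Col3a1 in WT 2 and KO 2, and the remaining 5 genes in every library.

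**Figure D2:**
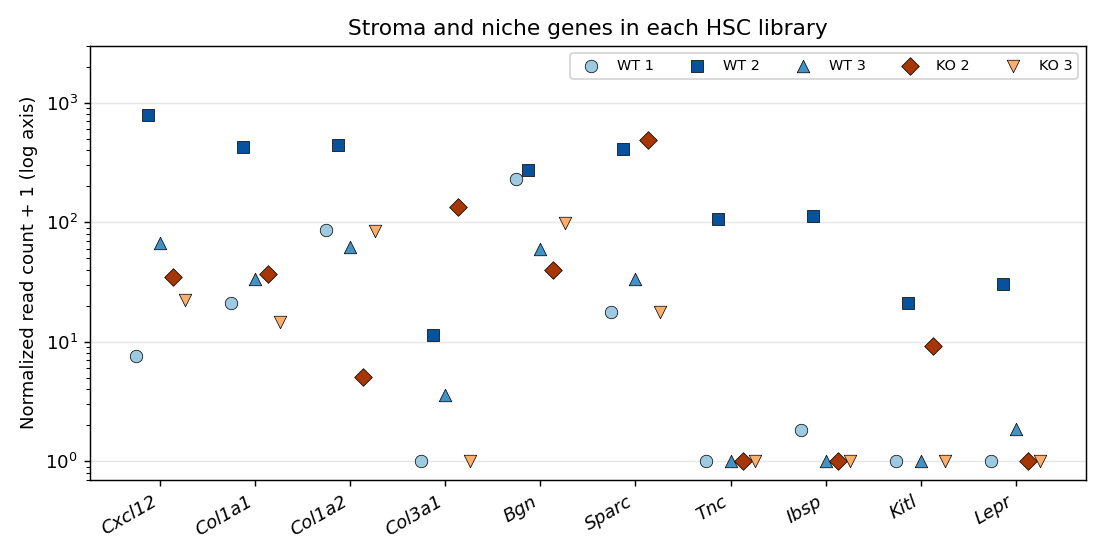
Normalized read count + 1 (log y axis) of each stroma and niche gene (x axis) in the 5 libraries, 1 point per library. The squares of WT 2 are highest for 8 of the 10 genes, and the diamonds of KO 2 are highest for Col3a1 and Sparc.

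The niche factors Cxcl12 and Kitl and the stromal marker Lepr came first. Cxcl12, the chemokine that retains HSCs, lies on chromosome 6 (117168535 to 117181367, plus strand, GENCODE M21 on GRCm38) and had 6.66, 798 and 66.0 normalized reads in WT 1, WT 2 and WT 3, against 33.9 in KO 2 and 21.3 in KO 3. WT 2 was 12.1-fold above the next library, WT 3 (counting interval 9.58 to 15.5). Both KO values lay between WT 1 and WT 3. The limma log2 fold change was -1.41 (SE 1.57), and it was 0.30 with WT 2 left out, so that its sign rested on that library. Its size also varied, at -3.05 without WT 1 and -3.39 with edgeR and with DESeq2.

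Kitl, which encodes stem cell factor, lies on chromosome 10 (100015630 to 100100416, plus strand). It had 19.96 normalized reads (23 reads) in WT 2 and 8.22 (8 reads) in KO 2, and it was listed at 0 in WT 1, WT 3 and KO 3. WT 2 was 2.43-fold above KO 2, with a counting interval of 1.05 to 6.28. These are the only libraries of the 5 in which the transcript was detectable at this depth.

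Lepr, the leptin receptor and a marker of perivascular stroma (chromosome 4, 101717404 to 101815352, plus strand), had 29.5 normalized reads in WT 2 (34 reads) and 0.857 in WT 3 (1 read), and was at 0 in WT 1, KO 2 and KO 3. The ratio of WT 2 to WT 3 was 34.4, with a counting interval of 5.78 to 1400. WT 2 thus stood apart from the other WT libraries as well as from both KO libraries.

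Collagen chains did not share a pattern. Col1a1 encodes the alpha 1 chain of type I collagen (chromosome 11, 94936224 to 94953042, plus strand), and had 19.98, 428 and 32.6 normalized reads in WT 1, WT 2 and WT 3 and 36.0 and 13.7 in KO 2 and KO 3. WT 2 was 11.9-fold above the next library (counting interval 8.43 to 17.3), and the other 4 libraries lay between 13.7 and 36.0.

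Col1a2 encodes the alpha 2 chain, the partner of Col1a1 in the same triple helix (chromosome 6, 4504814 to 4541544, plus strand). Its values were 84.9, 442 and 61.7 normalized reads in WT 1, WT 2 and WT 3, 4.11 in KO 2 and 83.5 in KO 3. It was thus at the level of WT 1 in KO 3 and at 4 reads in KO 2. Per kilobase of the longest transcript, Col1a1 and Col1a2 stood at 72.2 and 82.6 normalized reads in WT 2, but at 3.37 and 15.9 in WT 1 and at 6.07 and 0.769 in KO 2.

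Col3a1, the chain of type III collagen, which is found in soft connective tissue and vessel walls, lies on chromosome 1 (45311538 to 45349706, plus strand). It had 133 normalized reads in KO 2, 10.4 in WT 2 and 2.57 in WT 3 (3 reads), and none in WT 1 and KO 3. KO 2 was 12.7-fold above WT 2 (counting interval 7.04 to 25.3). The KO libraries were thus the highest and, with WT 1, the lowest of the 5.

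Matrix proteins that bind collagen came next. Sparc (chromosome 11, 55394500 to 55423183, minus strand), a collagen-binding glycoprotein of bone and vessels, had 16.7, 411 and 32.6 normalized reads in WT 1, WT 2 and WT 3, 484 in KO 2 and 16.7 in KO 3. KO 2 and WT 2 differed by 1.18-fold (counting interval 1.03 to 1.34), and both lay more than 10-fold above every other library. Sparc alone gave 65.6% of the member reads of KO 2 and 15.6% of those of WT 2.

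Bgn, which encodes the small leucine-rich proteoglycan biglycan (chromosome X, 73483602 to 73495933, plus strand), had 230, 275 and 59.1 normalized reads in WT 1, WT 2 and WT 3 and 39.1 and 97.2 in KO 2 and KO 3. WT 2 was 1.20-fold above the next library, WT 1 (counting interval 1.02 to 1.41), so no library stood apart. In WT 1 it gave 64.0% of the member reads, and in KO 3 41.8%. WT and KO ranges overlapped.

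Tnc encodes tenascin-C, an adhesion-modulating matrix protein of the endosteum (chromosome 4, 63959785 to 64047015, minus strand). It had 105 normalized reads in WT 2 (121 reads) and was listed at 0 in WT 1, WT 3, KO 2 and KO 3. WT 2 was at least 23.0-fold higher than the floor of 3 reads in any of those libraries. A noncoding gene on the opposite strand (8030451A03Rik) overlaps Tnc, and the SMART-Seq v4 kit does not keep strand, so reads of both could not be told apart.

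Ibsp encodes bone sialoprotein, a mineral-binding protein of osteoblasts (chromosome 5, 104299171 to 104311469, plus strand). It had 113 normalized reads in WT 2 (130 reads) and 0.833 in WT 1 (1 read), and was at 0 in WT 3, KO 2 and KO 3. The ratio of WT 2 to WT 1 was 136, with a counting interval of 23.9 to 5394. Because WT 1 and WT 3 were at or under 3 reads for both Tnc and Ibsp, the KO libraries could not be told apart from these WT libraries.

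Levels of different members were compared per kilobase of the longest transcript. In WT 2 the order was Sparc (179 normalized reads per kilobase), Cxcl12 (142), Bgn (103), Col1a2 (82.6), Col1a1 (72.2), Ibsp (54.6), Tnc (14.8), Lepr (5.32), Kitl (3.53) and Col3a1 (1.87). In KO 2 Sparc (211) and Col3a1 (23.8) led on the same scale, before Bgn (14.7). Bgn led in WT 1 (86.2), WT 3 (22.2) and KO 3 (36.5). Longest transcripts stand in for the isoforms present, which were not measured.

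Across the whole table, limma called 1 gene of 13661 tested (0.00732%). A call needed a change of at least 2-fold and a Benjamini-Hochberg adjusted p below 0.05. The filter on low values was passed by 6 of the 10 members, and Tnc, Ibsp, Kitl and Lepr did not pass it. Of those 6, limma called 0 (0 at an unadjusted p under 0.05, which 27.8% of all genes met), edgeR called 0 (background 0.0146%), and DESeq2 called 0 of the 6 that received an adjusted p, where its background was 8.72% of 12170 genes. Both KO values lay outside the WT range for 0 of the 6, and for 47.1% of all genes tested. Since the members were chosen on this contrast, nothing is read from these counts. The limma log2 fold changes were -2.68 for Col1a2 (SE 1.20), -1.53 for Col1a1 (SE 1.19), -1.32 for Bgn (SE 0.70), 0.57 for Sparc (SE 1.56) and 1.75 for Col3a1 (SE 2.09). With WT 2 left out they were -1.82 for Col1a2, -0.19 for Col1a1, -0.91 for Bgn and 1.93 for Sparc, and Col3a1 no longer passed the filter. Leaving out a KO library also moved some of them. Col1a2 stood at -0.66 without KO 2 and at -4.71 without KO 3, and Col3a1 at 5.28 without KO 3.

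Other genes of niche cells were then read from lists. In the bone and cartilage list, 15 of 25 genes exceeded 3 reads in WT 2, against 6 to 10 in the other libraries, while over all genes WT 2 had 60.3% above that floor and the others 57.6% to 59.6%. Above the floor in WT 2 alone were 6 of the 25 (24.0%), where 1.12% of all genes were. These were the osteocalcin genes Bglap (14.8 normalized reads) and Bglap2 (3.47), the osteoblast transcription factor Sp7 (5.21), the cartilage collagens Col2a1 (19.96) and Col11a1 (6.94), and Cthrc1 (3.47). The sequences of Bglap and Bglap2 are almost the same, so their individual values are uncertain. Mmp13, a collagenase of bone, had 35.6 in WT 2, 6.17 in KO 2 and 0 elsewhere. By contrast Runx2 (434 to 973 normalized reads), Spp1 (42.5 to 357) and Col11a2 (102 to 307) were detected in every library, and osteocyte genes Sost, Mepe and Phex were at 0 in all 5.

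Mesenchymal stroma genes exceeded the floor more often in WT 2 (27 of 32) and KO 2 (22) than in WT 1 (16), WT 3 (15) and KO 3 (16). Those above it in WT 2 alone were Igfbp5 (65.1 normalized reads), an insulin-like growth factor binding protein of osteoblasts and stroma, the collagen chains Col6a3 (26.9) and Col5a2 (15.6), and Foxc1 (9.55), a transcription factor of CXCL12-rich stromal cells. Above it in KO 2 alone were Ebf3 (26.7) and the pericyte gene Cspg4 (17.5), and above it in WT 1 alone was the fibroblast protease gene Fap (55.8, against 1.74 in WT 2). The microfibril gene Fbn1 was also highest in WT 1 (64.9, against 21.7 in WT 2). KO 2 was the highest library for 8 of the 32 genes, WT 1 and WT 2 for 7 each, KO 3 for 6 and WT 3 for 3. Pdgfra, a defining marker of mesenchymal stroma, had 6.08 in WT 2 and 22.8 in KO 3 and was at 0 in WT 1, WT 3 and KO 2. Genes of this list with the highest values, Igfbp4 (7886 to 13793), Angpt1 (1563 to 4053) and Vcam1 (680 to 3682), were abundant in all libraries, and the summed level of the list (14547 to 16954 in WT, 16913 and 18521 in KO) followed them.

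The enzymes that mature collagen were mostly present throughout. P4hb (14224 to 21498 normalized reads), Ppib (3492 to 4245) and Crtap (632 to 2882) had the highest values in any library, Crtap through KO 3 (632 to 1050 elsewhere). Lox, which cross-links collagen, had 13.0 in WT 2 and 0 in all other libraries, and Adamts2, which trims procollagen ends, had 21.7 in WT 2 and 0 elsewhere. Serpinh1, the collagen chaperone HSP47, had 34.1, 152 and 25.7 in WT 1, WT 2 and WT 3, 341 in KO 2 and 126 in KO 3, with KO 2 and WT 2 the highest libraries as for Sparc.

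**Figure D3:**
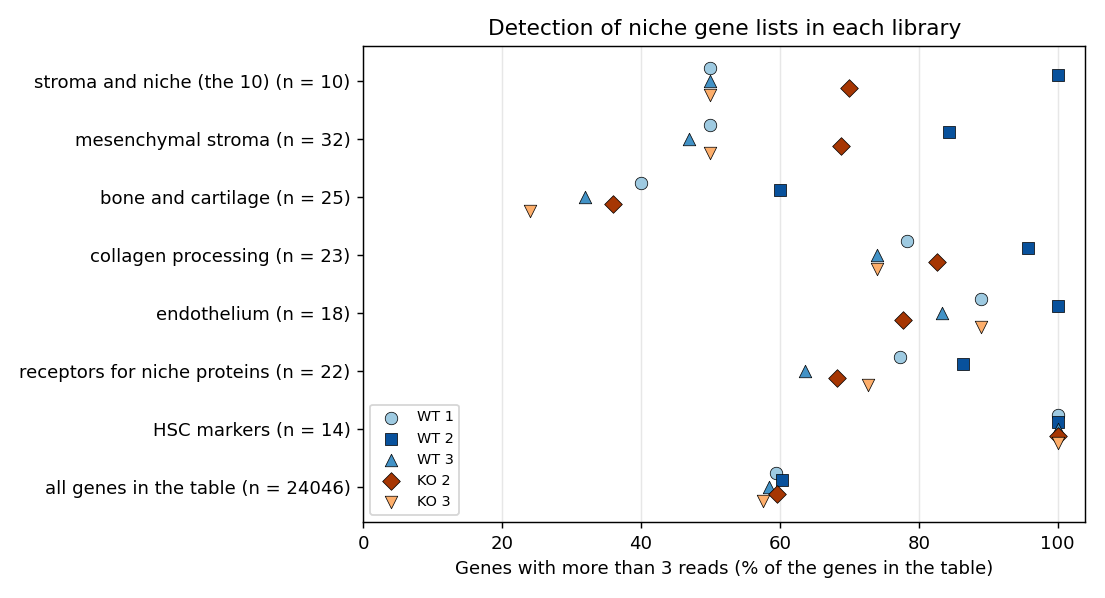
Share of the genes of each list with more than 3 reads (x axis, percent of list genes in the table), by list (y axis) and library (points). WT 2 is the rightmost library for the 10 stroma and niche genes (100%), the other stroma, bone, collagen processing, endothelium and receptor lists, while all libraries are at 100% for HSC markers and between 57.6% and 60.3% for all genes.

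Some markers of other cells were high in the same libraries as Sparc and Col3a1. Of the 10 adipocyte genes, 9 were highest in KO 2, and their summed level was 14054 in KO 2, 74.4 in KO 3 and 157 to 576 in WT. Fabp4, a fatty acid binding protein, had 7687 in KO 2 and at most 128 elsewhere. Cfd, the adipokine adipsin, had 2164 in KO 2 and at most 14.8 elsewhere, and the lipase gene Lpl had 1344 in KO 2 and 60.7 to 333 elsewhere. Adipoq, which encodes adiponectin, had 959 in KO 2, 52.1 in WT 2, 5.14 in WT 3 and 0 in WT 1 and KO 3, and Cidec was at 0 outside KO 2. The small proteoglycan Dcn (68.9 in KO 2, 3.47 in WT 2) and Sparcl1 (167 and 15.6), a paralog of Sparc, were at 0 in WT 1, WT 3 and KO 3, as Col3a1 was in WT 1 and KO 3. Some endothelial markers were highest in WT 2 and KO 2. Cdh5, the adhesion molecule of vessel junctions, had 32.1 and 54.5 there, 0 in WT 1 and WT 3 and 1.52 in KO 3, and Cldn5 had 63.4 and 67.8 there against at most 13.7 elsewhere. Other endothelial genes did not follow Sparc and Col3a1. Of the 18 in the list, 8 were highest in KO 3, which was low for Sparc and Col3a1, 5 in WT 2, 3 in KO 2 and 1 each in WT 1 and WT 3. The summed level was 5975 to 9425 in WT and 18284 and 21745 in KO, with Vwf and Tie1 abundant in all libraries and with Fabp4, which is in both the endothelial and the adipocyte list, included. With Fabp4 left out, a choice made after seeing the data, the summed level was 5958 to 9297 in WT, 10597 in KO 2 and 21743 in KO 3. The part of these cells in the levels of Sparc and Col3a1 was not tested.

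**Figure D4:**
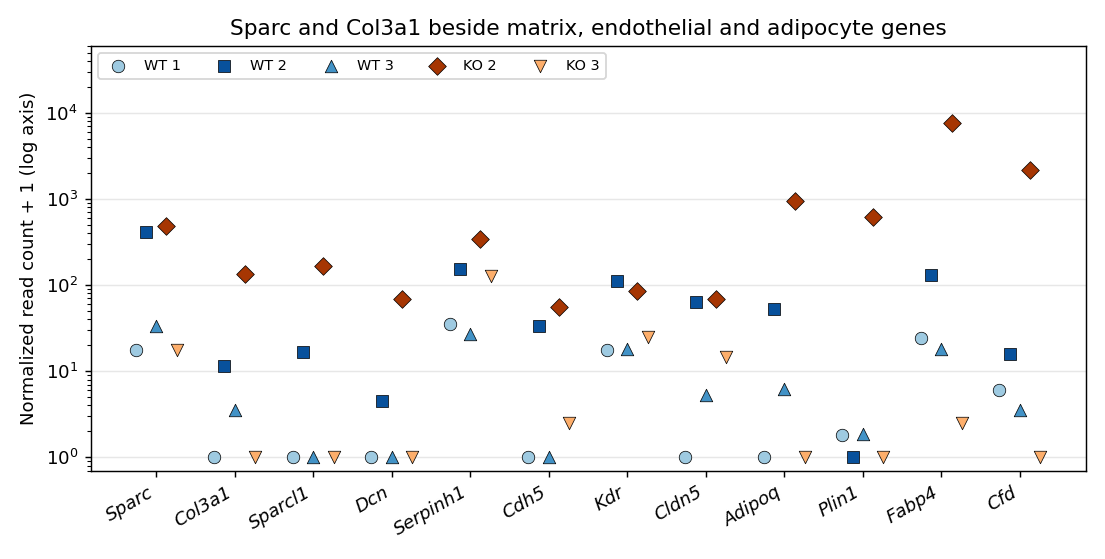
Normalized read count + 1 (log y axis) of Sparc, Col3a1 and selected matrix, endothelial and adipocyte genes (x axis), 1 point per library. WT 2 and KO 2 are the highest libraries for Sparc, Serpinh1, Cdh5, Kdr and Cldn5, and KO 2 alone leads for Col3a1, Sparcl1, Dcn and the adipocyte genes.

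Osteoclast and macrophage genes did not follow the members. Of the 16 in the table, 2 were highest in WT 2 and 7 in KO 2. Their summed level was 6368, 10525 and 10423 in WT 1, WT 2 and WT 3, and 6178 in KO 2 and 5186 in KO 3, most of it from Mmp9 in WT. With Mmp9 left out, a choice made after seeing the data, the summed level was 2347 to 3261 in WT, 3438 in KO 2 (the highest library) and 2210 in KO 3. Osteoclast genes Calcr and Ocstamp were at 0 in all libraries, and Ctsk had 13.0 in WT 2 and 6.17 in KO 2. Mmp9 (2739 to 7460), Itgb3 (740 to 1286) and Acp5 (232 to 654) had the highest values in any library.

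Genes outside these lists with the pattern of the members were sought among the 11234 with at least 50 normalized reads in WT 2. The 10 with the highest ratio of WT 2 to the next library, each value with 1 added, were Col8a1 (53.1-fold), Serping1 (11.8), Fbln5 (8.46), 8430408G22Rik (5.16), Mx1 (4.08), Cxcl14 (4.04), Efnb2 (2.63), Slc27a3 (2.48), Fsd1l (2.33) and Ptpro (2.21). Col8a1, a short-chain collagen, had 52.1 in WT 2 and 0 in all others. Fbln5, a protein of elastic fibres, had 92.0 in WT 2 and at most 9.99 elsewhere, and the complement inhibitor Serping1 had 61.6 and at most 4.28. The likeness is over 5 libraries and describes WT 2 only. Among genes with at least 50 normalized reads in a library, and by a limit of 8-fold over every other library with 1 added to each value, both chosen after the values were seen, 8 stood apart in WT 2, namely the members Cxcl12, Col1a1, Tnc and Ibsp together with Igfbp5, Col8a1, Serping1 and Fbln5. The same limits gave 2 genes in WT 1, 2 in WT 3, 65 in KO 2 (Col3a1 among them) and 8 in KO 3.

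Receptors for the proteins of these genes were read next, and 14 to 19 of the 22 exceeded 3 reads in a library. Kit, the receptor of stem cell factor, averaged 9592 ± 1341 normalized reads over the 3 WT libraries and 9133 ± 1593 (both SD) over the 2 KO libraries, with a limma log2 fold change of -0.07 (SE 0.20, adjusted p = 0.831). Cxcr4, the receptor of CXCL12, had 502, 619 and 650 in WT and 493 and 284 in KO. Itgb1, the beta 1 integrin chain that binds collagens and tenascin-C, averaged 5381 ± 264 (SD) in WT and 4013 ± 278 (SD) in KO, with both KO values below all WT values, and its limma log2 fold change was -0.42 with an SE of 0.16 (adjusted p = 0.138). Cd44, a matrix receptor, had 3523, 3483 and 4251 in WT and 1742 and 996 in KO; by limma its log2 fold change was -1.50 with an SE of 0.25, at an adjusted p of 0.0815. Lair1, an inhibitory collagen receptor, had 1256, 1138 and 1443 in WT and 833 and 364 in KO; by limma its log2 fold change was -1.21 with an SE of 0.33, at an adjusted p of 0.0879. Ackr3, the other CXCL12 receptor, had 67.8 in KO 2 and at most 0.833 elsewhere.

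Of the 22 receptor genes, 15 were tested and limma called 0 in either direction (4 at an unadjusted p under 0.05, beside 27.8% of all genes), with a median log2 fold change of -0.42 beside 0.02 for all genes tested. edgeR also called 0 (4 at an unadjusted p under 0.05, beside 27.2% of all genes). DESeq2 called 2 of the 12 with an adjusted p, Cd44 and Lair1, both lower in KO, where it called 8.72% of all genes. For Cd44 the DESeq2 adjusted p was 4.28e-05 and ran up to 0.286 over the alternatives, and for Lair1 it was 0.0200 and ran from 0.00303 to 0.292. Both KO values lay outside the WT range for 6 of the 15 receptors tested, against 47.1% of all genes.

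The other lists were counted in the same way, and 27.8% of all genes had an unadjusted p under 0.05 in limma. limma called 0 of 19 mesenchymal stroma genes (2 at an unadjusted p under 0.05; median log2 fold change -0.07), 0 of 7 bone and cartilage genes (1; 0.41), 0 of 17 endothelial genes (4; 0.51), 0 of 11 osteoclast and macrophage genes (1; -0.51), 0 of 6 adipocyte genes (0; 1.65) and 0 of 18 collagen processing genes (7; 0.03). edgeR called 0 in each of these lists as well. DESeq2 called 0 of 12, 1 of 4, 2 of 13, 1 of 9, 2 of 7 and 3 of 14 genes with an adjusted p in these lists, in the same order, against 8.72% of all genes. The 2 adipocyte genes were Cidec (979 in KO 2 and 0 elsewhere) and Plin1 (621 in KO 2 and at most 0.857 elsewhere), so both calls rest on KO 2 alone. Vwf, Egfl7, Crtap and Fkbp10 were called higher in KO, and Mmp9 and Adamts3 lower. Of the 14 HSC markers limma called 0 (2 at an unadjusted p under 0.05), edgeR 0 and DESeq2 2. These 2 were Ptprc, lower in KO (4635, 3735 and 4550 in WT, 2010 and 1271 in KO), and Gata2, higher in KO. Their DESeq2 adjusted p-values were 1.79e-05 and 0.0141, and those of limma 0.0815 and 0.118. Over the alternatives the adjusted p ran up to 0.286 for Ptprc and 0.512 for Gata2. Spp1, which encodes the bone matrix protein osteopontin and lies in the same gene family as Ibsp, was the bone gene called by DESeq2, with 213, 288 and 357 in WT and 119 and 42.5 in KO; by limma its log2 fold change was -1.96 with an SE of 0.48, at an adjusted p of 0.0818. Its DESeq2 adjusted p was 0.00679, and over the alternatives it ran from 0.00466 to 0.286. Unlike Ibsp, Spp1 was present in all 5 libraries.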

How the data were processed

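The data comprised 5 bulk RNA-seq libraries of sorted HSCs (3 WT, 2 KO), made per the labels with a SMART-Seq low-input kit after phenol-chloroform extraction. STAR, featureCounts, DESeq2 and the mm10 build are named in the submitters' processing notes; versions, annotation and use of strand were not given in the sources used here. The authors deposited a normalized signal, that is gene read counts divided by a size factor of each library. A table of the authors' own comparison (its log2 fold changes with raw and adjusted p-values) was not used. All positive values of a column were whole multiples of its lowest value within 0.001 reads (100% of values), and division by it gave back the reads.

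The members and lists were chosen with earlier results of these data known. limma (version 3.58.1, R 4.3.3; trend) was fitted to log2(value + 1) of 13661 genes, those that reached 10 in 2 or more libraries, with no covariate. Fold changes on this scale understate those of low genes. edgeR's quasi-likelihood test (4.0.16) and DESeq2 (1.42.0) on the recovered reads, other pseudocounts, filters and scaling, a replicate block and leaving out each library were alternatives. edgeR called 2 genes and DESeq2 1061. Ratios between libraries have exact conditional binomial 95% intervals and sums exact Poisson ones. Transcript lengths and positions were taken from GENCODE M21 (GRCm38) by symbol. Every pair of libraries differed by more than sampling noise (lowest chi-square divided by its degrees of freedom, 34.1).

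The text names the 10 members, from each other list every gene called by limma and the 3 genes with the highest value in any library, and the 10 genes most like the members; other names, such as those detected in WT 2 or KO 2 alone, defining markers and genes called by DESeq2, were chosen after their values were seen. Adgre1, P3h1, Colgalt1 and Ly6g had no row under these symbols.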

Additional observations from a re-analysis of the deposited data

How the results depend on the processing

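The summed level of the 10 genes in KO against WT was -1.16 on the log2 scale and stayed below 0 with scaling to the library total, TMM scaling, without Sparc, and without Sparc and Col3a1 (chosen after seeing the data), from -2.46 to -1.16. Leaving out 1 library at a time gave -2.22 (without KO 2) to 0.66 (without WT 2, where the sign changed). WT 2 exceeded the next library 3.57-fold, and 6.49-fold without Sparc and 6.46-fold without Sparc and Col3a1, since the next library was then WT 1. For the 6 members fitted, 4 of 70 alternative values changed sign: Cxcl12 without WT 2 (0.30), and Sparc without WT 1 (-0.34), without KO 2 (-1.82) and with the replicate number as a block (-0.34). The log2 fold change of Col3a1 moved from 1.75 to 5.28 without KO 3. The count of genes called, 1 by limma, was 2 with a pseudocount of 5 or 10 and with edgeR, 0 with all genes above 0 (3963 at an unadjusted p under 0.05), 6 with the replicate block and 1061 with DESeq2. Leaving out 1 library gave 0 (without WT 1, WT 2 or WT 3) to 2451 (without KO 2), with 11 without KO 3. Among the other niche, receptor and collagen processing genes limma called 0, DESeq2 11, and leaving out 1 library gave 0 to 15 (15 without KO 2, 2 without KO 3). Without KO 2 or KO 3 the KO arm is 1 library, which is assumed to vary like the WT libraries. The cause was not tested. Correlations of the deviations of libraries with the same replicate number were -0.06 for number 2 and -0.18 for number 3. The deviations of the 2 KO libraries mirror each other, so these correlations cannot decide whether libraries of 1 number shared an origin. WT 2 and KO 2, the highest libraries for Sparc, share number 2, and a link between them was not tested. In the block fit WT 1 carried no weight because no KO library shares its number. For Kitl, Lepr and Col3a1, counts of 34 reads or fewer in WT 2 limit the precision. In KO 3, the shallowest library, 1 read was worth 1.52 normalized reads and the floor of 3 reads 4.56.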
